A study of Mus musculus with 9 samples.

Results

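The genes described here are 32 genes of cholesterol and fatty acid synthesis that work under the sterol regulatory element binding proteins (SREBPs). They were chosen by gene symbol from textbook pathway membership. No measured value served as a rule, but earlier results of these data were known. All 32 were found among the 21939 genes of the count table. They comprise 5 genes of the SREBP control system, 8 genes of the mevalonate and isoprenoid steps, 11 genes of squalene and sterol synthesis, 1 gene of sterol transfer and 7 genes of fatty acid synthesis and desaturation.

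SREBPs are transcription factors made as membrane proteins of the endoplasmic reticulum. When membrane sterol is low, the escort protein SCAP carries them to the Golgi, where proteases release the active part; when sterol is high, the INSIG proteins hold SCAP back. SREBP2 chiefly drives sterol synthesis and SREBP1 fatty acid synthesis. The mevalonate pathway starts from acetyl-CoA and divides at farnesyl diphosphate, which is used either for squalene and sterols or for geranylgeranyl diphosphate, the lipid that anchors RhoA and related small GTPases to membranes.

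Long-term haematopoietic stem cells (LT-HSCs) were sorted as Lin- Sca1+ cKit+ CD34- Flt3- cells from bone marrow of C57BL/6 mice, and their RNA was sequenced in 3 groups of 3 libraries each. The young group came from mice 10 to 16 weeks old and the aged group from mice over 80 weeks old, both without inhibitor. The aged+Ri group came from mice over 80 weeks old and received Rhosin, a small-molecule inhibitor of RhoA, at 100 µM. Cells of all 3 groups, controls included, spent 16 h outside the animal in HBSS containing 10% FBS, under 3% O2 and 5% CO2, so no group holds freshly isolated cells. The labels call the libraries biological replicates but do not give the number of mice behind each, so p-values measure the spread between these samples.

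Library totals lay between 34358101 and 72503142 estimated counts, and all 15 HSC marker genes had counts in each group. Genes with a count numbered 20129 to 21213 in the young libraries, 15024 to 17987 in the aged and 15117 to 16333 in the aged+Ri libraries. The Y-linked gene Ddx3y had counts of 2577 in young 2 and 6400 in young 3 and at most 1 in every other library, so for genes that differed most from the young group, values without those libraries are also given where they moved by over 1.5 times or crossed the threshold. Myeloid markers summed to 1103 to 3750 CPM, counts scaled to a common library size, in the young, 472.8 to 10480 in the aged and 77.66 to 139.3 in the aged+Ri libraries, where 14 of 15 had counts and Cebpe was at 0. Lymphoid markers summed to 255.8 to 13610, 112.6 to 795.5 and 79.62 to 147.1 CPM in the same order, with Gzmb at 0 in the aged+Ri libraries. The highest of these sums, in young 1, came mostly from 1 gene, Iglc2, with 661083 counts. Of the 12 lymphoid markers tested, young 1 was the highest of its group in 3 and young 3 in 9. Mast cell and basophil markers reached 126, 283.4 and 5.987 CPM at most, and Prss34, Cma1 and Tpsb2 were at 0 with inhibitor. Erythroid and megakaryocyte markers, the list with its highest sums in the aged+Ri libraries, summed to 130.6 to 659.6, 117.5 to 476.8 and 566.8 to 980.9 CPM, with Gp9 at 0 there. The HSC markers summed to 2272 to 4162, 2446 to 3300 and 1590 to 2811 CPM, and stromal, endothelial and fat cell markers to 80.95 to 97.59, 58.63 to 100.7 and 22.12 to 71.82 CPM. The share of counts from mitochondrially encoded genes was 4.14% to 4.68%, 2.57% to 3.54% and 1.57% to 2.56%. These values moved with the groups, and their part in the results below was not tested. In bulk samples, fewer cells of a type and less RNA per cell cannot be told apart.

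SREBPs bind weakly on their own and work at promoters together with NF-Y, which binds CCAAT, and Sp1, which binds GC boxes. Promoter sequences from RefSeq on GRCm38.p6, from 250 bases before to 50 after the start, were matched for 25 of the 32 genes. CCAAT, searched on both strands, was present in 21 of the 25 genes (84%), against 42.9% of the 11875 tested genes with a promoter in the table. The GC box GGGCGG, also on both strands, was present in 21 of 25 (84%) against 63.8%. CACGTG was present in 5 of 25 (20%) against 10.9%. The sterol element core TCACNCCAC was found in 1 of the 25, Hmgcs1 (4%), against 1.4%. A match is a description of the letters and not a measured site, and nothing is drawn from a missing match. The Hmgcs1 stretch is shown because it holds that core, in capitals, 137 to 129 bases before the start (chr13:119690169-119690267, + strand). It overlaps no annotated exon.
Hmgcs1: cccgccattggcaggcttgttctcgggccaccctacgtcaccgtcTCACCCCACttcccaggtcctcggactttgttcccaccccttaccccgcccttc
The next sequences belong to 3 genes whose levels are described at length below, and their capitals mark the CCAAT box and the GC box in either orientation. That of Ebp (chrX:8193513-8193612, - strand) holds 1 of each. That of Insig2 (chr1:121332590-121332689, - strand) holds 2 CCAAT boxes, 1 in each orientation, and that of Ggps1 (chr13:14063490-14063589, - strand) holds 1. None of the marked boxes overlap.
Ebp: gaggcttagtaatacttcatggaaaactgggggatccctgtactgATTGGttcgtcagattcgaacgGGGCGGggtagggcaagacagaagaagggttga
Insig2: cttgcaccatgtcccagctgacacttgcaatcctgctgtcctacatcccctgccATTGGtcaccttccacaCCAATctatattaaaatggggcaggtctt
Ggps1: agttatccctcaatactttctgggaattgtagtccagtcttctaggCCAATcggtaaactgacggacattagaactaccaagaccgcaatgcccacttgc

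No gene of the pathway passed the test in any of the 3 comparisons. All 32 genes passed the filter on low counts and were tested with the quasi-likelihood test of edgeR, and p-values were adjusted by Benjamini-Hochberg over the 15127 genes tested, with a threshold of 0.05. For aged against young, 0 of 32 were called, against 5 of all genes (0.0331%). At an unadjusted p under 0.05, 3 were higher (Ebp, Insig2 and Fads2) and 1 was lower (Hmgcs1), against 6.09% and 10.1% of all genes. The same 4 genes were those whose aged and young libraries did not overlap, against 8.58% higher and 16.1% lower among all genes. The fitted log2 change was above 0 for 20 of 32, with a median of 0.24, while 45.3% of all genes were above 0 and their median was -0.13. DESeq2 called 1 of the 32, Ebp, which was higher, against 10.9% of all genes with an adjusted p, in either direction. Among the 15127 genes tested with edgeR, DESeq2 called 468 higher and 1070 lower. Limma-voom called none of the 32, against 0.119%. DESeq2 gave no adjusted p for Mvd in any comparison.

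For aged+Ri against aged, edgeR called 0 of 32, as it did for all genes (0%). At an unadjusted p under 0.05, 2 were higher (Acat2 and Ggps1) and 1 was lower (Fads2), against 4.24% and 4.89% of all genes. The libraries did not overlap for 4 genes that were higher with inhibitor (Insig2, Acat2, Idi1 and Msmo1) and for 1 that was lower (Fads2), against 7.87% and 8.66%. The fitted change was above 0 for 17 of 32, with a median of 0.21, while 47.2% of all genes were above 0 and their median was -0.06. Without aged+Ri 2 the median was -0.25 and 12 of 32 were above 0, while 2 were higher and 1 lower at an unadjusted p under 0.05. All genes in that fit had a median of -0.09, with 4.80% higher and 5.01% lower at that p. DESeq2 and limma-voom called none of the 32, against 2.87% and 0.364% of all genes.

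For aged+Ri against young, edgeR called 0 of 32, against 1.45% of all genes. At an unadjusted p under 0.05, 5 were higher (Ggps1, Ebp, Insig2, Fdft1 and Msmo1) and 0 were lower, against 9.06% and 14.4% of all genes. For 8 genes every aged+Ri library was above every young library (Insig2, Acat2, Fdps, Ggps1, Fdft1, Msmo1, Ebp and Scd1), against 12.4%, and for 0 the reverse held, against 19.9%. The median change was 0.15 with 21 of 32 above 0, against -0.24 and 42.6% for all genes. Without aged+Ri 2 the median was -0.21 with 13 of 32 above 0, and 4 genes were higher and 4 lower at an unadjusted p under 0.05, against a median of -0.43, 7.98% higher and 12.8% lower for all genes in that fit. DESeq2 called 4 of the 32, all higher (Insig2, Ggps1, Ebp and Fdft1), against 17.4% of all genes in either direction. Among the 15127 genes tested with edgeR, DESeq2 called 826 higher and 1714 lower. Limma-voom called 1 of the 32, Fdft1, against 4.26%. The comparisons share libraries: the aged group enters the first and the second, the young group the first and the third, and the aged+Ri group the second and the third.

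**Figure D1:**
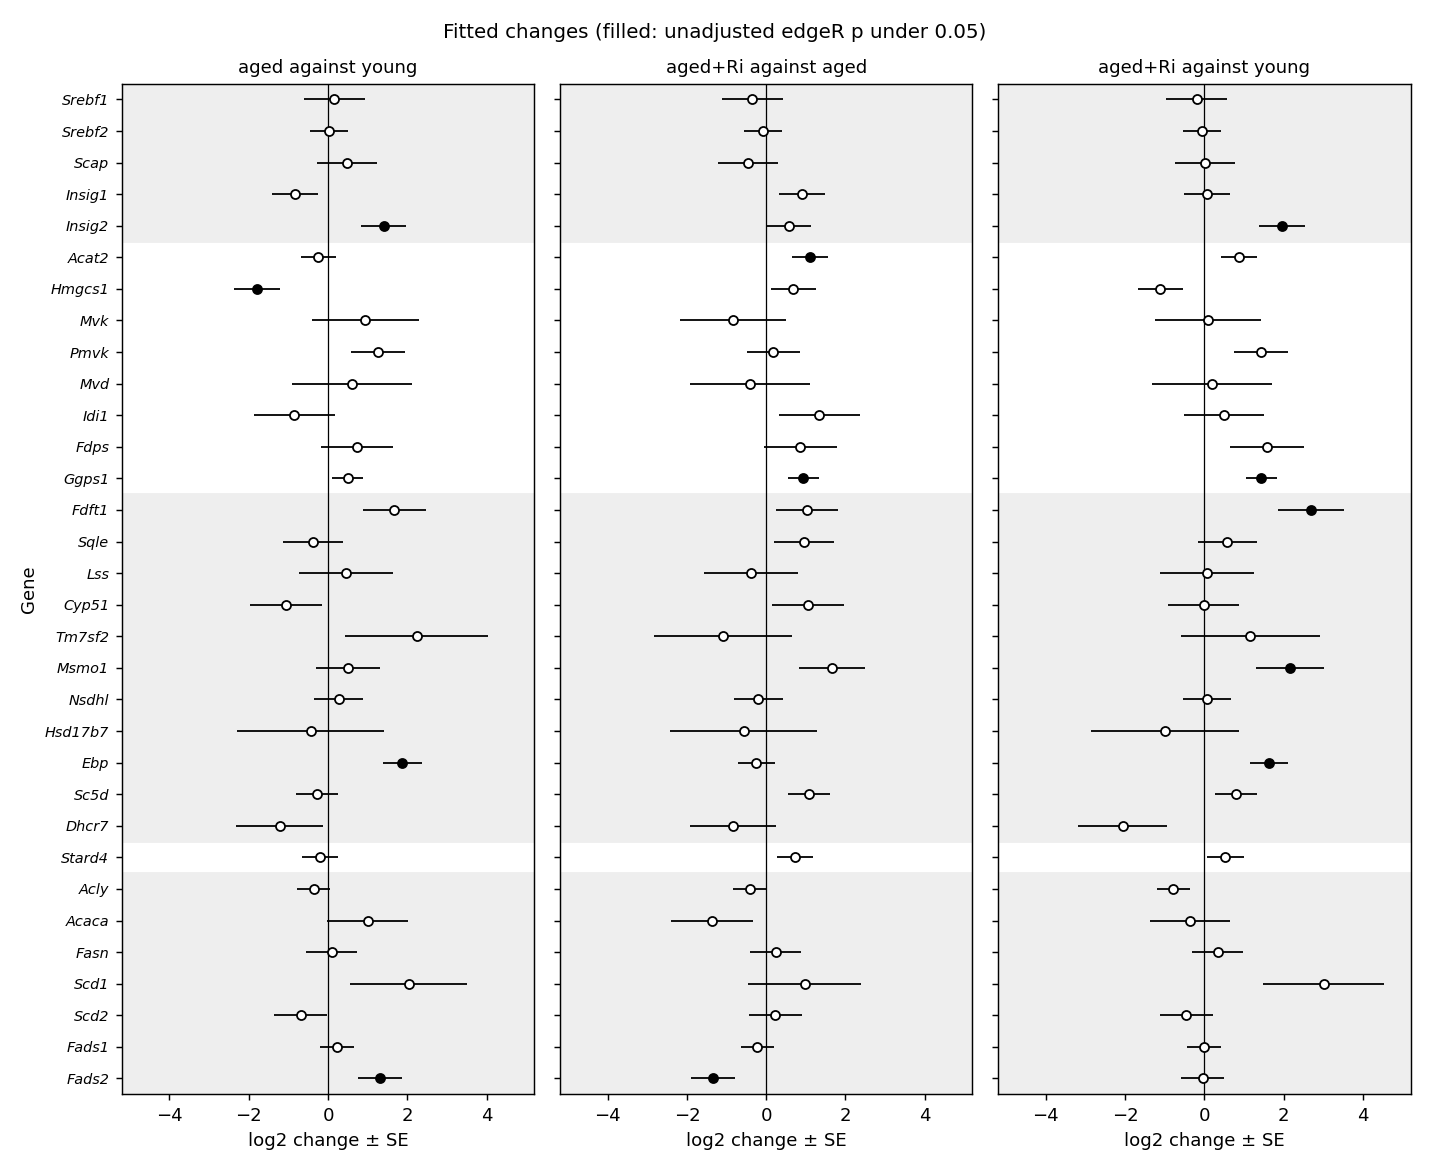
Fitted log2 change ± SE (horizontal axis) of each of the 32 genes (vertical axis) in the 3 comparisons, with filled points at an unadjusted edgeR p under 0.05 and bands for the pathway branches. Filled points number 4, 3 and 5 from left to right, and none of them passed after adjustment over all genes.

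**Figure D2:**
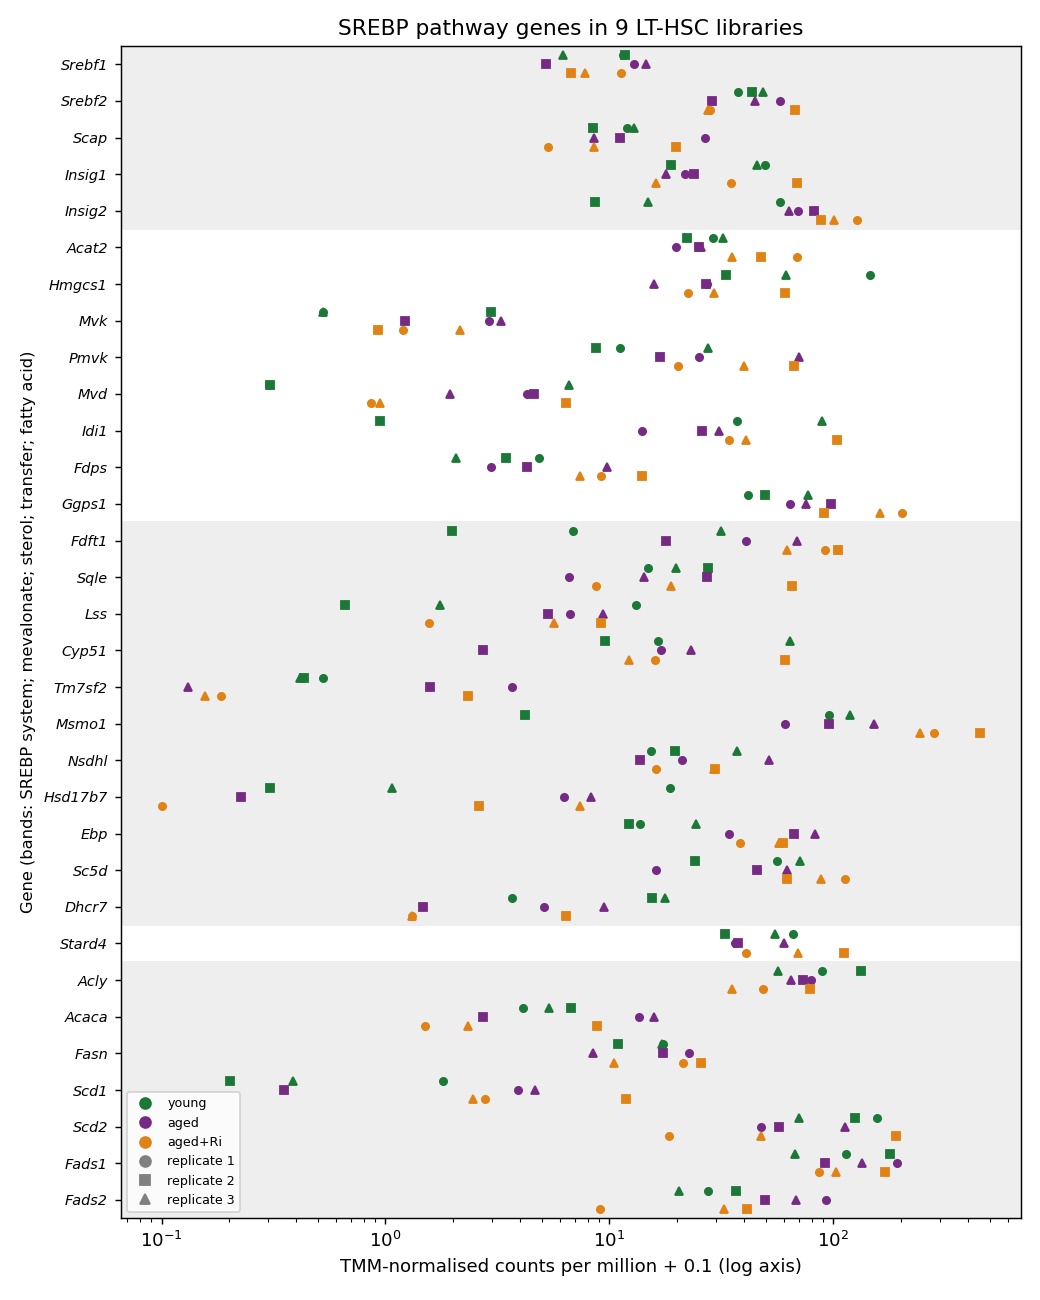
TMM-normalised CPM plus 0.1, on a log axis, of each gene (vertical axis) in every library, with colour for the group and shape for the replicate. Msmo1 lies highest with inhibitor, from 242.9 to 449.6 CPM, and Tm7sf2 lies low in all groups.

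Among the 5 genes of the control system, the levels of the transcription factors and their escort overlapped between the 3 groups, and the largest fitted differences were those of Insig2 from the young group. Srebf1, which encodes SREBP1, had 11.4, 11.6 and 6.13 CPM in young 1, 2 and 3, 12.8, 5.11 and 14.5 in the aged libraries and 11.2, 6.63 and 7.68 in the aged+Ri libraries. Srebf2, which encodes SREBP2, had 37.3, 43.1 and 48.2 CPM in the young, 57.5, 28.8 and 44.6 in the aged and 28.1, 67.6 and 27.5 in the aged+Ri libraries. Scap had 11.9, 8.37 and 12.8 CPM in the young, 26.5, 11.1 and 8.46 in the aged and 5.22, 19.8 and 8.42 in the aged+Ri libraries. All 3 groups overlapped for each of these genes, aged+Ri 2 was the highest of its group for Srebf2 and Scap, and aged 1 was the highest library of all for Scap. Their fitted log2 changes in the 3 comparisons lay between -0.46 ± 0.76 (SE, Scap, aged+Ri against aged) and 0.48 ± 0.76 (Scap, aged against young). Those of Srebf2 were 0.03 ± 0.48 for aged against young, -0.09 ± 0.48 for aged+Ri against aged and -0.06 ± 0.48 for aged+Ri against young. The signs of several of these changes turned with the scaling or with the library left out, as did that of Insig1 for aged+Ri against young.

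Insig2, the INSIG gene that is not itself a main SREBP target (chr1:121304353-121332589, - strand, GRCm38), had 57.8, 8.55 and 14.8 CPM in young 1, 2 and 3, 69.3, 81.9 and 63.0 in the aged and 127.5, 88.1 and 101 in the aged+Ri libraries. The groups formed 3 steps that did not overlap, and young 1 stood close to the aged libraries. With age alone the log2 change was 1.40 ± 0.58 (SE; unadjusted p = 0.0298, adjusted p = 0.265) and 1.96 ± 0.59 for aged+Ri against young (adjusted p = 0.0911). Between aged+Ri and aged it was 0.56 ± 0.57 (adjusted p = 0.857). Both differences from young depended on which young libraries were kept. Without young 1, aged+Ri against young was 3.15 with an adjusted p of 0.0185, past the threshold, and aged against young was 2.60 (adjusted p = 0.0585). Without young 2 and young 3 they were 0.93 (adjusted p = 0.268) and 0.37 (adjusted p = 0.688). DESeq2 gave an adjusted p of 0.0453 for the same comparison with all libraries. Insig1, a direct SREBP target whose protein retains SCAP in the endoplasmic reticulum, had 49.5, 18.7 and 45.4 CPM in the young, 21.8, 23.7 and 17.9 in the aged and 34.6, 68.6 and 16.0 in the aged+Ri libraries. Its aged libraries lay close together inside the range of the young ones, apart from aged 3 just below it, and its aged+Ri libraries spread the widest. Its log2 change was -0.84 ± 0.58 for aged against young (adjusted p = 0.485), 0.91 ± 0.58 for aged+Ri against aged (adjusted p = 0.691; 0.26 without aged+Ri 2) and 0.07 ± 0.58 for aged+Ri against young (adjusted p = 0.954).

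The mevalonate steps had mostly positive fitted changes with inhibitor: 6 of the 8 genes had a fitted change above 0 for aged+Ri against aged, with a median log2 change of 0.77, and 7 of 8 for aged+Ri against young, with a median of 0.68. None was called. Acat2, the cytosolic thiolase that joins acetyl-CoA units, had 28.9, 21.99 and 31.99 CPM in the young, 19.7, 24.9 and 25.5 in the aged and 68.6, 47.6 and 35.1 in the aged+Ri libraries. Every library with inhibitor was above every other library. Its log2 change was 1.11 ± 0.45 (SE) against aged (unadjusted p = 0.0289, adjusted p = 0.485) and 0.87 ± 0.45 against young (adjusted p = 0.263).

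Hmgcs1, the HMG-CoA synthase whose promoter stretch is printed above (gene at chr13:119690379-119708260, + strand, GRCm38), was lower in the aged libraries. Its values were 146.1, 33.2 and 61.6 CPM in young 1, 2 and 3, 27.3, 27.0 and 15.6 in the aged and 22.4, 60.5 and 29.1 in the aged+Ri libraries. All aged libraries were below all young ones, but young 1 was far above the rest and young 2 was near the aged values. The log2 change for aged against young was -1.79 ± 0.58 (unadjusted p = 0.00898, adjusted p = 0.21), and it was -1.04 without young 1. DESeq2 gave an adjusted p of 0.0507. Leaving out young 2 and young 3 together, the change was -2.59 with an adjusted p of 0.0193; in that fit young 1, left alone, is assumed to vary like the other groups. Between aged+Ri and aged it was 0.68 ± 0.57 (adjusted p = 0.81).

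The kinases and the decarboxylase of the pathway had wide spreads. Pmvk, phosphomevalonate kinase, had 11.04, 8.57 and 27.4 CPM in the young, 24.9, 16.7 and 70.2 in the aged and 20.1, 66.7 and 39.8 in the aged+Ri libraries. Young 3 overlapped both older groups. Fitted log2 changes were 1.25 ± 0.68 for aged against young (adjusted p = 0.37) and 1.43 ± 0.68 for aged+Ri against young (adjusted p = 0.227). The first was 0.47 without aged 3 and 1.94 without young 3, and the second was 2.39 with sequencing batch as a covariate. Mvk, mevalonate kinase, stayed between 0.425 and 3.20 CPM in all 9 libraries, and Mvd, the decarboxylase, between 0.202 and 6.50 CPM. The groups overlapped for both, and none of their fitted changes exceeded its SE.

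The enzymes that make and lengthen isoprenoids had their highest group means with inhibitor. Idi1, the isopentenyl diphosphate isomerase, had 37.1, 0.842 and 88.6 CPM in the young, 13.9, 25.8 and 30.6 in the aged and 34.1, 103.7 and 40.6 in the aged+Ri libraries. The aged+Ri libraries lay above the aged ones, while the young libraries ran from the lowest value of all to nearly the highest. The log2 change for aged+Ri against aged was 1.34 ± 1.03 (adjusted p = 0.784). Fdps, farnesyl diphosphate synthase, had 4.73, 3.37 and 1.97 CPM in the young and 9.10, 13.9 and 7.29 in the aged+Ri libraries, which did not overlap, with 2.87, 4.17 and 9.65 in the aged libraries between and among them. Its log2 change for aged+Ri against young was 1.59 ± 0.94 (adjusted p = 0.321).

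Ggps1, the synthase of geranylgeranyl diphosphate, had 41.4, 49.6 and 76.8 CPM in the young, 63.8, 97.5 and 75.2 in the aged and 201.4, 90.6 and 161.1 in the aged+Ri libraries. Aged+Ri 1 and 3 were above every other library, and aged+Ri 2 was below aged 2. The log2 change was 1.43 ± 0.39 (SE) against young (unadjusted p = 0.00286, adjusted p = 0.0779), 0.94 ± 0.39 against aged (unadjusted p = 0.031, adjusted p = 0.492) and 0.50 ± 0.39 for aged against young (adjusted p = 0.547). It had the smallest adjusted p of the 32 genes against young. That value passed the threshold without young 3 (1.74, adjusted p = 0.0391) and by DESeq2 (0.0349). Within sequencing batch 1 the aged+Ri and aged libraries differed by 1.65 log2 units and within batch 2 by 0.31, with 1 or 2 libraries a side. Exons of Ggps1 (chr13:14050659-14063488, - strand, GRCm38) overlap those of Arid4b on the opposite strand. Its deposited count was not whole in any of the 9 libraries, but the same held for Srebf2 and Msmo1, whose exons overlap no other gene. Reads of Ggps1 and Arid4b may be shared between them, which was not tested.

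The genes of squalene and sterol synthesis were mixed in direction in the main model. For aged+Ri against aged the median log2 change of the 11 was -0.20 with 5 above 0, and for aged+Ri against young it was 0.58 with 8 above 0. Over the 18 alternatives these medians ran from -0.36 to 0.92 and from -0.45 to 1.51. Fdft1, squalene synthase, the enzyme that commits farnesyl diphosphate to sterols (chr14:63145150-63179578, - strand, GRCm38), had 6.79, 1.89 and 31.3 CPM in the young, 40.7, 17.7 and 68.8 in the aged and 91.6, 104.5 and 61.7 in the aged+Ri libraries. Young 1 and 2 were lowest, young 3 lay among the aged libraries, and the aged+Ri libraries were above all young ones and above aged 1 and 2. The log2 change was 2.69 ± 0.83 (SE) for aged+Ri against young (unadjusted p = 0.006, adjusted p = 0.0964), 1.67 ± 0.80 for aged against young (adjusted p = 0.318) and 1.02 ± 0.78 for aged+Ri against aged (adjusted p = 0.783). The first of these passed the threshold by DESeq2 (2.60, adjusted p = 0.0403) and by limma-voom (3.62, adjusted p = 0.0488). It also passed with sequencing batch as a covariate (4.75, adjusted p = 0.0169), without young 3 (4.32, adjusted p = 0.0113) and without both young 2 and young 3 (3.72, adjusted p = 0.0124). Aged against young was 3.30 (adjusted p = 0.0575) without young 3, 2.71 (adjusted p = 0.0651) without young 2 and young 3 and 2.65 (adjusted p = 0.205) with the batch covariate, and leaving out 1 library at a time gave 1.21 to 3.30. Exons of Fdft1 overlap those of Ctsb on the opposite strand, and no strand setting of the counting is known here.

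Msmo1, the methylsterol monooxygenase that starts removal of methyl groups from the sterol ring (chr8:64718139-64733792, - strand, GRCm38), had the highest CPM of the 32 genes in each aged+Ri library. Its values were 95.1, 4.08 and 118 CPM in young 1, 2 and 3, 60.9, 95.7 and 151.3 in the aged and 281.1, 449.6 and 242.9 in the aged+Ri libraries. Every library with inhibitor was above every library without, and young 2 was far below its group. The log2 change was 1.66 ± 0.84 for aged+Ri against aged (unadjusted p = 0.0721, adjusted p = 0.593) and 2.16 ± 0.85 for aged+Ri against young (unadjusted p = 0.027, adjusted p = 0.164). Within batches it was 2.20 (batch 1) and 1.78 (batch 2) for aged+Ri against aged. Leaving out 1 library at a time gave 1.35 to 1.98 for that comparison. With sequencing batch as a covariate, aged+Ri against young was 3.72. The deposited count of Msmo1 was not whole in any of the 9 libraries.

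Ebp, the sterol isomerase that moves the ring double bond (chrX:8185329-8193512, - strand, GRCm38), was higher in both old groups than in the young group, by differences that passed the threshold only under some alternatives. Its values were 13.6, 12.1 and 24.2 CPM in the young, 34.03, 66.5 and 82.5 in the aged and 38.3, 59.3 and 56.8 in the aged+Ri libraries. All 6 libraries from old mice were above all 3 young ones, and the aged and aged+Ri values lay in the same range. The log2 change was 1.87 ± 0.48 (SE) for aged against young, with an unadjusted p of 0.00186, the smallest of the 32 genes, and an adjusted p of 0.173. DESeq2 gave an adjusted p of 0.0118. Between aged+Ri and young it was 1.63 ± 0.48 (adjusted p = 0.0902; DESeq2 0.0249; 2.01 and 0.0471 without young 3), and for aged+Ri against aged -0.25 ± 0.47 (adjusted p = 0.953). The age difference was 2.41 within sequencing batch 2 and 1.75 within batch 3, with 1 library a side. It lay between 1.68 and 2.26 when 1 library at a time was left out.

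Sc5d, the sterol desaturase that acts after Ebp, had 55.8, 24.1 and 70.8 CPM in the young, 16.1, 45.5 and 62.2 in the aged and 113.1, 61.9 and 87.9 in the aged+Ri libraries. Aged+Ri 2 was just below aged 3, and the other libraries with inhibitor were above all aged ones. The log2 change for aged+Ri against aged was 1.09 ± 0.53 (adjusted p = 0.58), and 0.67 without aged 1. Sqle and Cyp51, the squalene epoxidase and the lanosterol demethylase, were high in aged+Ri 2 alone of their group. Sqle had 8.65, 65.1 and 18.8 CPM there and Cyp51 16.0, 60.6 and 12.1. Their log2 changes for aged+Ri against aged were 0.95 ± 0.76 and 1.06 ± 0.90 (adjusted p = 0.795 and 0.817). Nsdhl, a dehydrogenase of the same demethylation, had 15.3, 19.5 and 36.9 CPM in the young, 21.0, 13.6 and 51.5 in the aged and 16.1, 29.6 and 29.3 in the aged+Ri libraries, and its groups overlapped throughout. Lss, the cyclase that makes lanosterol, and Dhcr7, a terminal reductase, stayed between 0.561 and 17.6 CPM, and Tm7sf2, a sterol reductase, between 0.0318 and 3.57 CPM. Hsd17b7, a ketoreductase, ran from 0 in aged+Ri 1, where 3 counts would be 0.0796 CPM, to 18.5 CPM in young 1. The groups of these 4 genes overlapped, and their fitted log2 changes lay between -2.06 (Dhcr7, aged+Ri against young) and 2.24 (Tm7sf2, aged against young), with SEs of 1.12 and 1.81.

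Summed over its genes, the mevalonate branch had 269.8, 120.7 and 295.3 CPM in the young, 159.3, 201.7 and 231.9 in the aged and 357.5, 390.0 and 315.9 in the aged+Ri libraries. The sterol branch had 253.2, 115.1 and 385.0, then 217.5, 276.9 and 480.4, then 567.5, 850.8 and 523.6 CPM in the same order. In both branches every aged+Ri library was above every library of the other groups. Group means were 228.6 ± 94.3 (SD, n = 3), 197.6 ± 36.5 and 354.5 ± 37.2 CPM for the mevalonate branch and 251.1 ± 135, 324.9 ± 138 and 647.3 ± 178 CPM for the sterol branch. The separation of the mevalonate branch rested on Ggps1. This gene held 201.4 and 161.1 CPM of the sums in aged+Ri 1 and 3, against 41.4 and 76.8 in young 1 and 3. Without Ggps1 the sums of aged+Ri 1 and 3 would lie below those of young 1 and 3. Msmo1 alone carried much of the sterol branch. Without Msmo1 that branch had 286.4, 401.2 and 280.7 CPM in the aged+Ri libraries, and aged 3, at 329.1, lay among them. These sums weight the most abundant genes and no test was made of them. In the main model 6 of the 11 sterol genes had a fitted change below 0 for aged+Ri against aged.

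**Figure D3:**
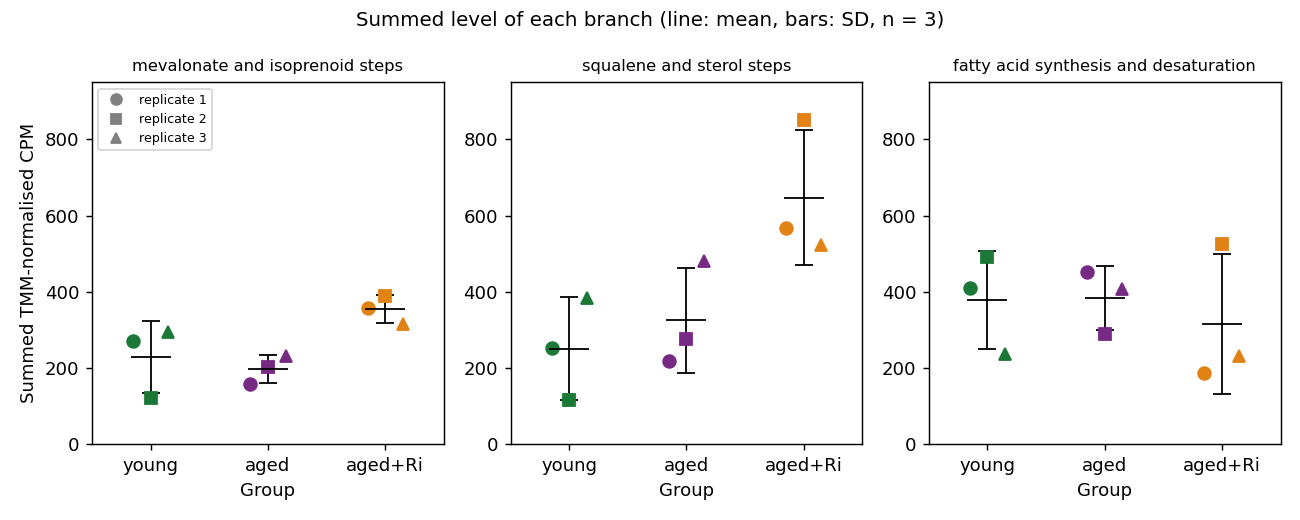
Summed TMM-normalised CPM (vertical axis) of 3 branches in each library by group, with horizontal lines for the means and bars for the SD of 3 libraries. The aged+Ri libraries lie above the others in the mevalonate and sterol branches, while in the fatty acid branch they run from 186.9 to 524.9 CPM across the range of the other groups.

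Stard4, a carrier that moves cholesterol between membranes, had 66.0, 32.8 and 54.9 CPM in the young, 36.2, 37.3 and 60.2 in the aged and 40.4, 112 and 69.5 in the aged+Ri libraries. The groups overlapped, with aged+Ri 2 highest. Its log2 change for aged+Ri against aged was 0.73 ± 0.46 (adjusted p = 0.685), and 0.33 without aged+Ri 2.

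The 7 fatty acid genes had a median log2 change of -0.22 for aged+Ri against aged, with 3 above 0, close to the median of the sterol genes. For aged+Ri against young it was -0.04 with 2 above 0, and no test of a difference between the branches was made. Acly, which makes cytosolic acetyl-CoA from citrate, had 88.6, 132.8 and 56.4 CPM in the young, 79.0, 72.8 and 64.3 in the aged and 48.2, 78.3 and 35.2 in the aged+Ri libraries. Its log2 change for aged+Ri against young was -0.78 ± 0.42 (adjusted p = 0.274). Acaca, acetyl-CoA carboxylase, stayed between 1.40 and 15.7 CPM and Fasn, fatty acid synthase, between 8.38 and 25.5 CPM, with all groups overlapping.

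Of the desaturases, Fads2, which opens the making of long polyunsaturated chains (chr19:10062765-10101746, - strand, GRCm38), had values that were higher with age and lower with inhibitor. It had 27.5, 36.7 and 20.3 CPM in the young, 92.5, 49.3 and 67.9 in the aged and 9.01, 41.1 and 32.2 in the aged+Ri libraries. All aged libraries were above all libraries of the other groups, and the young and aged+Ri values overlapped. Its log2 change was 1.31 ± 0.55 (SE) for aged against young (unadjusted p = 0.0325, adjusted p = 0.269), -1.35 ± 0.55 for aged+Ri against aged (unadjusted p = 0.0287, adjusted p = 0.485) and -0.04 ± 0.54 for aged+Ri against young (adjusted p = 0.975). The first and second share the aged libraries, so a high value there moves both. Within sequencing batch 1 aged+Ri against aged was -3.29 and within batch 2 it was -0.43.

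Fads1, the partner desaturase next in the same chain, had 113.2, 179.1 and 67.6 CPM in the young, 192.9, 91.2 and 134.6 in the aged and 86.0, 169.8 and 102.6 in the aged+Ri libraries. Its groups overlapped fully, with log2 changes between -0.22 ± 0.42 and 0.22 ± 0.42. Scd2, a stearoyl-CoA desaturase, had 156.9, 124.5 and 70.1 CPM in the young, 47.6, 57.0 and 113.1 in the aged and 18.4, 189.8 and 47.6 in the aged+Ri libraries. Its aged+Ri libraries held both the lowest and the highest value of all 9. Scd1, another stearoyl-CoA desaturase, had 1.70, 0.102 and 0.285 CPM in the young, 3.81, 0.253 and 4.53 in the aged and 2.695, 11.8 and 2.37 in the aged+Ri libraries. Its log2 change for aged+Ri against young was 3.01 ± 1.53 (adjusted p = 0.254).

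Levels can be compared between genes only per length, here as CPM per kb of merged exons. On that scale the order of the genes differed between groups. Young cells had Fads1 (24.9 ± 11.7, SD, n = 3), Scd2 (21.4 ± 8.04) and Acly (17.6 ± 7.28) at the top, and their spreads overlapped. Hmgcs1 of the mevalonate branch came next, at nearly the level of Acly (17.5 ± 12.8). Aged cells had Fads1 (29.0 ± 10.6), Ebp (26.4 ± 10.7) and Pmvk (21.8 ± 16.8), again with overlapping spreads, and Fads2 (21.2 ± 6.57) and Insig2 (20.6 ± 2.79) close behind. Cells with inhibitor had Msmo1 (52.8 ± 17.9), Ggps1 (32 ± 11.9) and Insig2 (30.4 ± 5.76), where the Msmo1 libraries ran from 39.5 to 73.2 and those of Ggps1 from 19.2 to 42.7. Tm7sf2 was lowest in all 3 groups, at 0.081 ± 0.0135, 0.385 ± 0.404 and 0.181 ± 0.285.

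A single library stood high across the pathway within the inhibitor group. Aged+Ri 2 was the highest of its group in 25 of the 32 genes (78.1%), against 34.5% of all genes tested, and in 9 of 11 sterol genes and 7 of 7 fatty acid genes. Its level was a median of 2.01 times the mean of aged+Ri 1 and 3, and at least 2 times that mean in 16 genes. The 7 genes in which it was not the highest were Srebf1, Insig2, Acat2, Mvk, Ggps1, Hsd17b7 and Sc5d. For Ggps1 it was at 0.50 times the mean of the others. Aged 3 was the highest of its group in 19 of 32 (59.4%, against 33.2% of all genes) and in 9 of 11 sterol genes, and young 2 the lowest in 17 of 32 (53.1%, against 42.3%) and in 7 of 11 sterol genes. Aged 3 is also the library with the highest myeloid marker sum, 10480 CPM. Aged+Ri 2 had 139.3 CPM of the same markers, the highest sum of its group, although it was highest in 5 of the 15 and aged+Ri 1 in 9. It was also the highest of its group in 14 of the 15 HSC markers (93.3%), which summed to 2811 CPM against 1590 and 1878. It had a mitochondrial share of 2.56% against 1.57% and 1.88% and a total of 55708258 counts against 37712059 and 38447858. The part of these measures in the pattern was not tested.

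**Figure D4:**
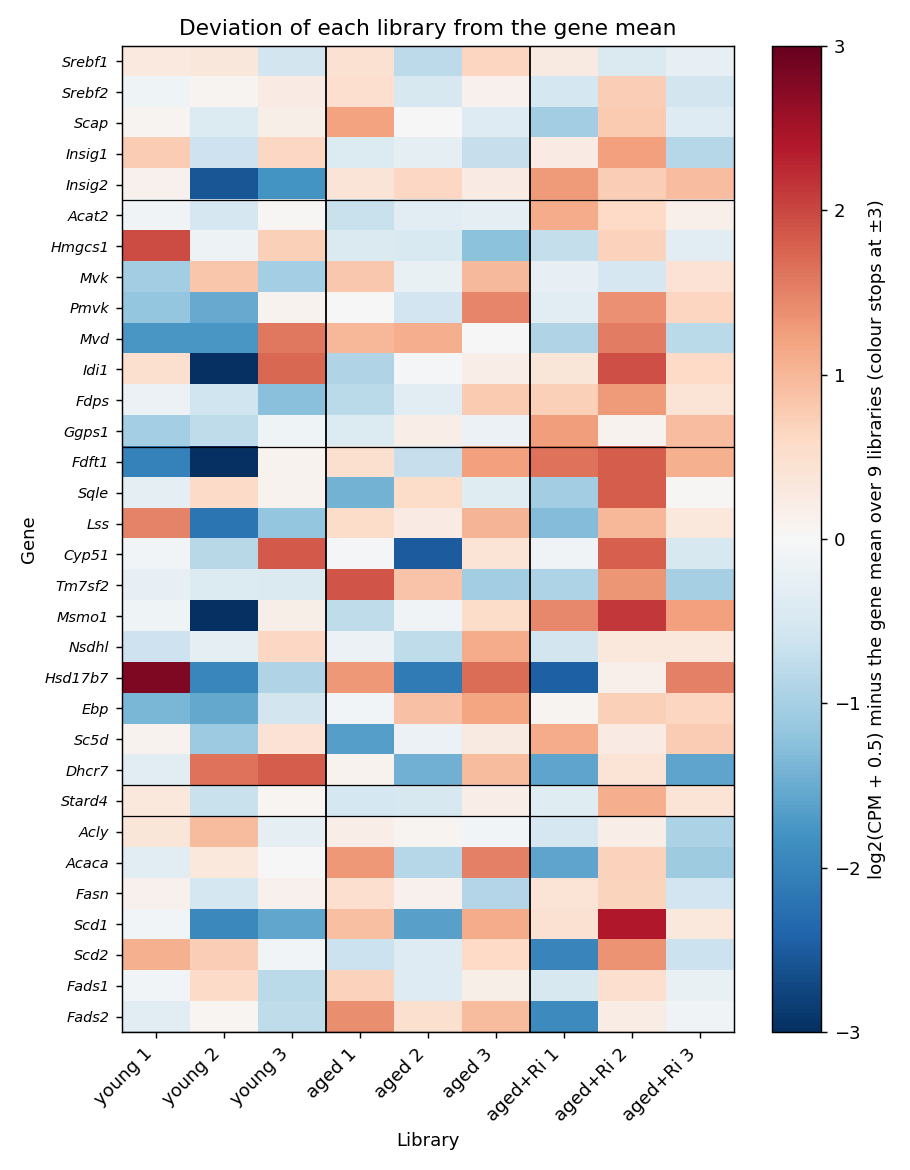
Deviation of each library (columns) from the mean over 9 libraries of each gene (rows), as log2(CPM + 0.5), with colour from below (blue) to above (red) and horizontal lines between branches. Aged+Ri 2 is above the gene mean across most rows, and Insig2, Ggps1, Fdft1 and Msmo1 are among the genes above it in all 3 aged+Ri libraries.

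The sequencing batches split the groups unevenly, with aged+Ri 1 in batch 1 and aged+Ri 2 and 3 in batch 2, and batch 3 held no library with inhibitor. Young 1 was sequenced in batches 1 and 3 and was counted equally to both in the batch covariate, and the values given with that covariate rest on this choice. The median log2 change of the 32 genes for aged+Ri against aged was -0.29 within batch 1 and 0.60 within batch 2, against 0.00 and -0.03 for all genes. For aged against young it was 0.30 within batch 2 and 0.27 within batch 3, against -0.10 and -0.13. The comparison of aged+Ri with young, which only batch 2 allows, gave 0.85 against -0.09. These values rest on 1 library a side, or 2 for aged+Ri in batch 2, and carry no test.

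Around the 32 genes, 77 further genes in 6 lists of the pathway's regulation and use were tested. For aged+Ri against young, edgeR called 4 higher and 2 lower, against 0.959% and 0.489% of all genes, and at an unadjusted p under 0.05 there were 13 higher and 8 lower, against 9.06% and 14.4%. DESeq2 called 8 higher and 7 lower there, against 17.4% of all genes in either direction, and limma-voom 3 and 3, against 4.26%. For aged against young it called 0 of 77, with 10 higher and 9 lower at an unadjusted p under 0.05, against 6.09% and 10.1%, while DESeq2 called 5 higher and 7 lower, against 10.9%, and limma-voom 0, against 0.119%. Between aged+Ri and aged it called 0 of 77, with 4 higher and 0 lower at an unadjusted p under 0.05, against 4.24% and 4.89%, while DESeq2 called 1 higher, against 2.87%, and limma-voom 0, against 0.364%. By list, the called genes for aged+Ri against young were 1 of 11 in SREBP processing and sterol-regulated degradation, 2 of 10 among LXR factors, efflux and esterification, and 0 of 12 in sterol uptake and transfer. They were 1 of 8 among accessory sterol enzymes, 1 of 14 in the use of isoprenoids and 1 of 22 in fatty acid supply, elongation and glycerolipids. In the list without a call, 2 genes were higher and 2 lower at an unadjusted p under 0.05, and DESeq2 called 1 higher and 1 lower.

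The 4 genes called higher in aged+Ri against young also had higher values in the aged libraries than in the young. Both comparisons use the same young libraries, on which the selection of these genes rested, so this is not separate evidence of a difference with age. For aged against young edgeR called 0 of the 77. Rnf139, an endoplasmic reticulum ubiquitin ligase, had 17.3, 20.3 and 23.4 CPM in the young, 43.1, 50.9 and 44.6 in the aged and 111.7, 51.8 and 96.2 in the aged+Ri libraries (log2 change 2.09 ± 0.42, SE, adjusted p = 0.0306). Rce1, the protease that trims prenylated proteins such as RhoA after the isoprenoid is attached, had 6.47, 11.4 and 8.55 CPM in the young, 11.5, 24.8 and 19.3 in the aged and 65.2, 39.3 and 41.5 in the aged+Ri libraries (2.47 ± 0.55, adjusted p = 0.0456). The groups of Rnf139 and Rce1 formed 3 steps that did not overlap. Cyb5r3, the reductase that passes electrons to sterol and fatty acid oxidases, had 8.53, 9.80 and 5.05 CPM in the young, 29.4, 26.5 and 45.4 in the aged and 41.9, 41.4 and 31.8 in the aged+Ri libraries (2.30 ± 0.52, adjusted p = 0.0464). Tlcd1 had 0.465, 0.102 and 0.827 CPM in the young, 7.57, 18.2 and 8.50 in the aged and 11.3, 20.0 and 14.7 in the aged+Ri libraries (5.04 ± 1.04, adjusted p = 0.0354). For Cyb5r3 and Tlcd1 the libraries of both old groups overlapped and lay above all young ones.

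Both genes called lower in aged+Ri against young also had lower values in the aged libraries, against the same young libraries by which they were selected. Abca1, the transporter that exports cholesterol from cells, had 80.0, 83.2 and 30.3 CPM in the young, 15.6, 28.3 and 18.7 in the aged and 5.47, 16.4 and 9.74 in the aged+Ri libraries (log2 change -2.61 ± 0.59, SE, adjusted p = 0.048). Elovl5, an elongase of polyunsaturated fatty acids, had 139.8, 88.4 and 151.9 CPM in the young, 45.7, 41.8 and 51.4 in the aged and 27.2, 54.0 and 26.4 in the aged+Ri libraries (-1.82 ± 0.41, adjusted p = 0.0456). In both genes every young library was above every other library. Each of the 6 calls was lost without young 1, without any 1 of the aged libraries, without aged+Ri 1 and without aged+Ri 3. Those of Abca1, Rnf139, Cyb5r3 and Rce1 were lost without young 2, that of Elovl5 without young 3, and those of Abca1, Tlcd1, Cyb5r3 and Rce1 without aged+Ri 2. All 6 were also lost when only the groups compared were fitted, and those of Cyb5r3 and Rce1 with DESeq2 size factors, with limma-voom and without a filter, while DESeq2 called all 6. The batch covariate lost those of Elovl5, Tlcd1, Rnf139, Cyb5r3 and Rce1, and leaving out young 2 and young 3 lost that of Cyb5r3 (adjusted p = 0.0655). The adjusted p reached at most 0.18 in these fits, and the log2 changes lay between 1.90 and 2.38 for Rnf139, 2.22 and 2.97 for Rce1, 2.08 and 2.55 for Cyb5r3, 4.63 and 5.75 for Tlcd1, -3.07 and -2.26 for Abca1 and -2.19 and -1.57 for Elovl5 over all 18 alternatives.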

How the data were processed

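Bulk RNA of sorted LT-HSCs was made into libraries with a SMART-Seq low-input kit and Nextera XT, per the labels' protocols. The values are estimated counts per gene as deposited by the authors: 71.6% to 80.9% of the values of a library are whole within 0.005. Per the submitters' processing notes, the tools were featureCounts, STAR 2.7.0, cutadapt 1.18, SAMtools 1.14 and R 4.2.0, and the build was GRCm38. The strand setting of the counting is not given in the sources used here; exons of 11 of the 32 genes overlap another gene, and 24 have a count that is not whole.

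Counts were rounded, filtered with filterByExpr (15127 of 21939 genes kept), scaled by TMM and fitted in 1 edgeR 4.0.16 quasi-likelihood model of the 9 libraries (R 4.3.3, 6 residual degrees of freedom, robust estimation), with two-sided tests. SE is the absolute log2 change divided by the square root of F. CPM values are TMM-normalised. The script was tested on simulated counts. Precision is limited by 3 libraries a group. Alternatives were DESeq2 1.42.0, limma-voom 3.58.1 with sample weights, DESeq2 size factors in edgeR, other filters, fewer samples, a replicate block and a batch covariate. Coordinates come from GENCODE vM21, where all 32 genes matched.

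Library values were given for the control system and for the up to 6 genes with the smallest unadjusted p in each comparison, and for others where needed to complete a range or where they were singled out after their values were seen (Idi1, Fdps, Acly, Nsdhl, Sqle, Cyp51, Fads1, Scd1 and Scd2). From each further list, up to 4 genes with the smallest p could be named. The 32 genes and all lists were chosen with earlier results of these data known.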

Additional observations from a re-analysis of the deposited data

How the results depend on the processing

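The single genes followed were the 5 of the control system, at any p, the up to 6 with the smallest unadjusted p in each comparison and the 6 further genes called. Of 666 values of these genes under 18 alternatives, 547 kept their direction and their side of the threshold. Another 67 lost a call (all of the 6 further genes called), 14 gained one, and 38 changed sign. All 38 were of Srebf1, Srebf2, Scap or Insig1, and the cause was not tested. Because the other genes were taken for a small p, this count cannot compare how stable the signs of the 32 genes were. Some genes not followed also changed sign with the batch covariate. Idi1 went from -0.85 to 0.49 for aged against young, and Nsdhl from -0.20 to 0.29 for aged+Ri against aged. Genes called for aged against young, aged+Ri against aged and aged+Ri against young numbered 1889, 427 and 2943 with DESeq2, 18, 55 and 644 with limma-voom, 1, 2 and 57 with only the groups compared, and 358, 40 and 735 without young 2 and young 3, against 5, 0 and 219. Without a filter the first and second were 20 and 11, and with batch as a covariate the second was 5. With 1 library left out they were 2 to 80, 0 to 6 and 18 to 532 (80 and 532 without young 3, 2 without aged 3, 6 without aged 1, 18 without aged+Ri 3). Of the 32 genes, DESeq2 called 1, 0 and 4. Without young 2 and young 3, 1 was called for aged against young and 1 for aged+Ri against young. For aged+Ri against young, limma-voom called 1, the batch covariate 1, and leaving out 1 library 0 to 3 (3 without young 3, 1 without young 1). The median change of the 32 genes against young was 0.72 with the batch covariate and 0.73 without young 2 and young 3. Leaving out 1 library it was 0.11 to 0.45 for aged against young, -0.25 to 0.42 for aged+Ri against aged and -0.21 to 0.55 for aged+Ri against young. Same-numbered libraries did not deviate together (correlations -0.072 to 0.122 over 9 pairs, against -0.159 to 0.158 over the 18 other pairs). Such correlations cannot exclude that same-numbered libraries share mice or handling, and the main model used no pairing. The replicate block gave 2 genes for aged+Ri against aged, and 1 of the 32 for aged+Ri against young (Fdft1, 3.57, adjusted p = 0.0472). It lost the calls of Elovl5, Tlcd1, Cyb5r3 and Rce1. Sign changes of Insig1 for aged+Ri against young were -0.02 (DESeq2 size factors), -0.01 (DESeq2), -0.24 (limma-voom), -0.05 (stricter filter), -0.08 (replicate block) and -0.25 (without young 2 and young 3), with -0.53 to 0.45 when 1 library was left out. Those of Scap in the same order were -0.07, -0.07, -0.18, -0.10, -0.04 and -0.03, then -0.16 (batch covariate) and 0.00 (only the groups compared), with -0.64 to 0.40. Leaving out 1 library, Scap was -0.10 to 0.79 for aged against young and -1.13 to 0.11 for aged+Ri against aged. Srebf1 for aged against young was -0.03 (limma-voom) and -0.01 (without young 2 and young 3), with -0.14 to 0.53, and -0.43 to 0.02 for aged+Ri against young. Srebf2 for aged against young was -0.07 (DESeq2 size factors), -0.06 (DESeq2), -0.07 (stricter filter) and -0.01 (only the groups compared), with -0.19 to 0.29. It was -0.62 to 0.12 for aged+Ri against aged and, for aged+Ri against young, 0.20 without young 2 and young 3, with -0.60 to 0.19. Where an alternative leaves 1 young library, its spread is taken from the other groups. A count of 3 was 0.0414 to 0.0873 CPM in a library, and of the 32 genes Tm7sf2 and Hsd17b7 fell below it in some libraries.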
